A study of Mus musculus with 2 samples.

Results

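Rab GTPases and SNARE proteins, the address labels and the fusion machinery of membrane traffic, were examined in sorted S100A4+ cells of metastatic lung and of normal lung. The genes were chosen by name: every probe whose symbol was Rab, Stx (syntaxin), Vamp, Snap or Stxbp (syntaxin-binding protein) followed by a digit, without interactors such as the Rab11fip genes. This gave 134 of 25697 probes, for 87 of 16590 named genes. The metastatic-lung cells came from BALB/c S100A4-GFP transgenic mice with 4T1 tumours, grown from a mammary carcinoma line that seeds lung metastases. The normal-lung cells came from BALB/c S100A4-GFP mice with no tumour named in the labels. Both kinds of cell were sorted by fluorescence, and their total RNA was amplified and read on Illumina bead arrays. Each group had 1 array. Nothing below has a replicate check or a p-value, and a difference between arrays cannot be told apart from one between conditions. The animals' ages, and whether their RNA was pooled, are not stated in the labels.

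Rab proteins are small GTPases that switch between an active, membrane-bound form and an inactive, cytosolic form, and each sits on particular membranes, where it recruits motors and tethers. SNARE proteins do the fusing: a VAMP on the vesicle pairs with a syntaxin and a SNAP25-family protein on the target membrane, and syntaxin-binding proteins of the SM family clasp this bundle. Leukocytes use the same system to release granules, to mature phagosomes and to recycle receptors. S100a4, a calcium-binding protein gene of fibroblasts and many leukocytes whose reporter defined the sort, had a signal of 1122 in metastatic-lung cells and 743 in normal-lung cells.

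Most Rab and SNARE genes had near-equal normalized levels in both groups. A probe was called detected when its detection p was below 0.01. Each gene was represented by its brightest probe, and values were background-corrected, quantile-normalized and taken to log2. Signals are given non-normalized throughout, while ratios use the normalized values unless said otherwise. For small differences a signal pair and its ratio can therefore point in opposite directions. Of the 87 genes, 60 (69.0%) were detected on at least 1 array, against 49.0% of all named genes. Over these 60 genes the median log2 ratio of metastatic over normal lung was 0.03, beside a median of 0.01 over all 8128 detected genes. Quantile normalization gives both arrays the same distribution, so a median near 0 over all genes is largely set by that step. Each ratio is therefore relative to the other genes. The log2 ratio was above 0 for 30 of the 60 Rab and SNARE genes and below 0 for the other 30. It lay within 0.5 of 0 for 45 genes (75%), while the same held for 59.6% of all detected genes.

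A gene was counted as different when its level differed at least 2-fold and it was detected on the brighter array. By this count 3 genes were higher in metastatic-lung cells: Rab44, Rab38 and Rab7b. They made up 5% of the 60 detected genes, near the 5.89% of all detected genes that were higher. Lower in metastatic-lung cells were 2 genes, Vamp2 and Rab19. That is 3.33% of the detected Rab and SNARE genes, below the 10.2% of all detected genes that were lower. With either direction counted, 8.33% of these genes differed at least 2-fold, beside 16.1% of all detected genes. In the authors' processed values 2 of the genes, Rab44 and Rab7b, were at least 2-fold higher and 0 lower, and with no background correction 3 were higher and 0 lower. Of the 60 genes, 54 were detected on both arrays, 1 on the metastatic-lung array only and 5 on the normal-lung array only (90%, 1.67% and 8.33%). The same shares over all detected genes were 84.9%, 4.97% and 10.1%.

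**Figure D1:**
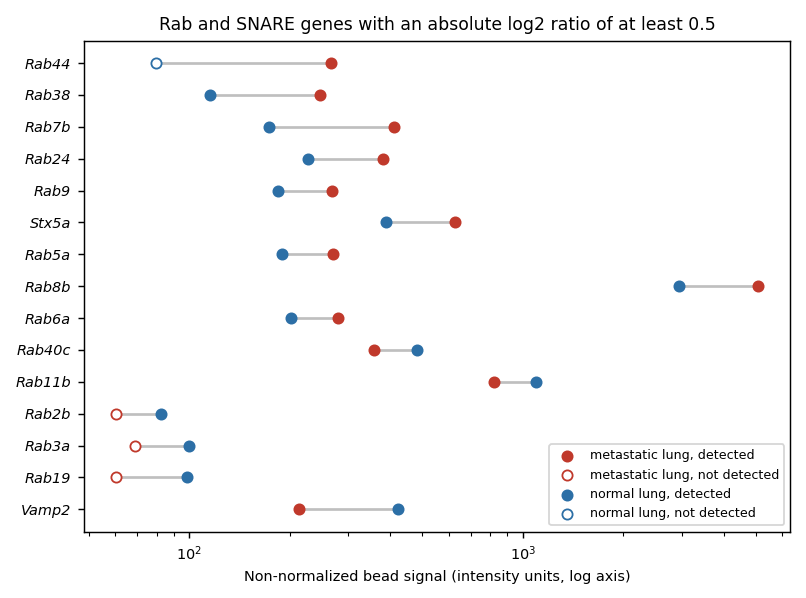
Non-normalized bead signal (log axis, intensity units) of the 15 Rab and SNARE genes whose log2 ratio was at least 0.5 in size, ordered by ratio, with red for metastatic lung and blue for normal lung, and open circles where a probe was not detected. Each circle is 1 array. Rab44 had the widest gap, with 266 in metastatic-lung and 79.5 in normal-lung cells, and Vamp2, at the bottom, had 214 in metastatic-lung and 424 in normal-lung cells.

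The largest difference was that of Rab44, an unusually large Rab that has been studied in mouse mast cells and osteoclasts. Its brighter probe had a signal of 266 in metastatic-lung cells and 79.5 in normal-lung cells, where its detection p was 0.0125, just short of detection. Because the normal-lung level is only a bound, Rab44 was at least 5.94-fold higher in metastatic-lung cells on the background-corrected values. This bound sets the bright value against the lowest level of any detected probe on the dim array. Each bound given here holds for that correction alone. The ratio of the uncorrected signals, which here and below are not normalized between the arrays either, is smaller for Rab44, at 3.35-fold. Its log2 ratio was 2.67 as measured, 1.90 with a larger offset, 1.81 with no background correction and 1.58 in the authors' processed values. A further Rab44 probe was detected on neither array, with signals of 64.0 in metastatic-lung and 64.8 in normal-lung cells.

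Rab38, which with its relative Rab32 delivers cargo to melanosomes, platelet granules and other lysosome-related organelles, had a signal of 246 in metastatic-lung cells and 115 in normal-lung cells. Its log2 ratio was 1.53, or 2.89-fold higher. A further Rab38 probe was detected on neither array. Rab32 itself differed much less, with signals of 916 in metastatic-lung and 711 in normal-lung cells and a log2 ratio of 0.27. Rab7b, a monocyte and macrophage Rab of the route between late endosomes and the Golgi, had a signal of 410 in metastatic-lung cells and 174 in normal-lung cells and was 2.83-fold higher. Its broadly expressed relative Rab7, the main Rab of late endosomes and lysosomes, had signals of 1467 in metastatic-lung and 1259 in normal-lung cells and a log2 ratio of 0.09.

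Vamp2, the vesicle SNARE of synapses that also serves regulated release in other cells, had a signal of 214 in metastatic-lung cells and 424 in normal-lung cells. Both values of its single probe were well above detection, and the log2 ratio was -1.15 (2.22-fold lower). The difference sat at the 2-fold line, and the log2 ratio was -0.99 with no background correction and in the authors' processed values. Rab19, a Golgi-associated Rab, was dim on both arrays. Its probes had signals of 60.3 and 53.3 in metastatic-lung cells, neither detected, and of 98.8 and 90.2 in normal-lung cells, both detected. As a bound Rab19 was at least 1.32-fold lower in metastatic-lung cells, so its 2-fold call rests on a value below detection. With such genes at their bounds, 3 Rab and SNARE genes passed 2-fold upward, beside 5.09% of all detected genes, and 1 passed it downward, beside 8.16%.

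Marker genes of other cells also differed between these arrays. Of 15 detected neutrophil and granulocyte precursor markers 10 were at least 2-fold higher, and the signals of the 17 on the array summed to 11415 in metastatic-lung cells and 5705 in normal-lung cells. Mpo alone had signals of 2055 in metastatic-lung and 67.2 in normal-lung cells. This list was not uniform. Its 5 other detected markers were Retnlg (log2 ratio 0.93), Mmp9 (0.65), Csf3r (0.10), Cxcr2 (-0.23) and S100a9 (-0.85). Of 11 detected endothelial markers 10 were at least 2-fold lower, with summed signals of 1233 in metastatic-lung and 5586 in normal-lung cells over 13 genes. Of 9 detected monocyte and macrophage markers 1 was higher and 5 were lower, with summed signals of 8864 and 12878 over 9 genes in metastatic-lung and normal-lung cells. Alveolar and airway epithelial markers had 5 of 9 lower, fibroblast markers 7 of 8, T and NK cell markers 6 of 10, dendritic cell markers 4 of 6, platelet markers 3 of 4 and B cell markers 2 of 2. Mast cell and basophil markers had 1 of 5 higher and 1 lower, eosinophil markers 1 of 2 higher and 1 lower, and pericyte and smooth muscle markers 1 of 3 lower. With genes detected on 1 array only at their bounds, 6 fibroblast, 5 T and NK cell, 2 platelet and 1 B cell markers were lower. The other marker counts did not change. Over all detected genes 5.89% were higher and 10.2% lower, or 5.09% and 8.16% with bounds. Markers of fibroblasts, endothelium, epithelium and several leukocytes were thus detected on at least 1 array of the sorted cells. The part of these markers in the Rab and SNARE differences was not tested. In sorted cells measured in bulk, fewer cells of a type and less RNA per cell cannot be told apart.

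**Figure D2:**
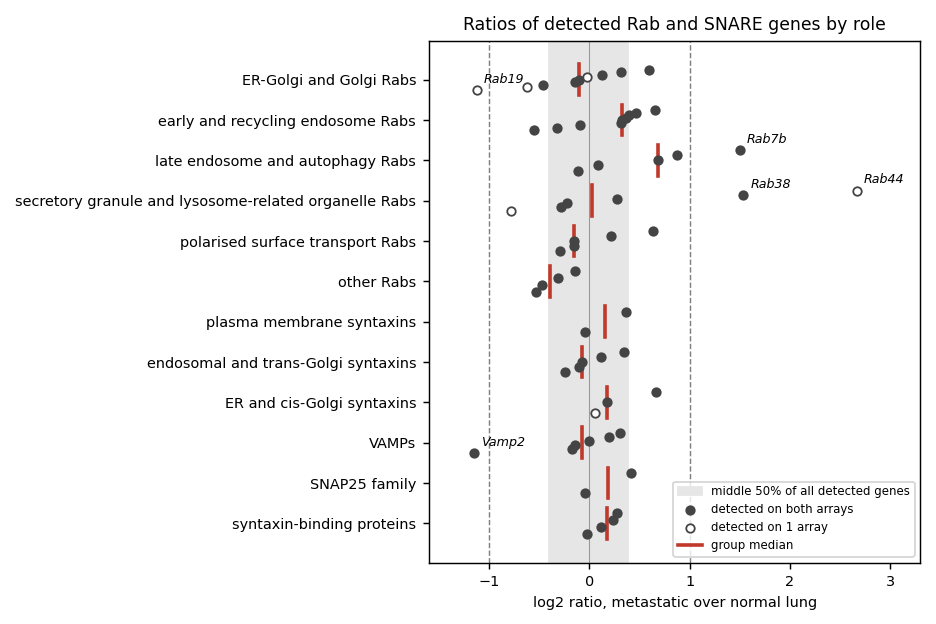
Log2 ratio of metastatic over normal lung (horizontal axis) for the detected Rab and SNARE genes in 12 role groups, each point 1 gene, open where it was detected on 1 array only, with a red bar at the group median. Dashed lines mark 2-fold differences, and the grey band holds the middle 50% of all detected genes, -0.40 to 0.39. Rab44, Rab38 and Rab7b lie right of the dashed lines, and Rab19 and Vamp2 left of them.

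Among the Rabs of secretory granules and lysosome-related organelles, 6 of 10 genes were detected, and apart from Rab44 and Rab38 the detected genes were not higher by as much as 2-fold. Rab27a, which docks lytic and secretory granules at the cell surface, had signals of 570 in metastatic-lung and 611 in normal-lung cells and a log2 ratio of -0.22. Rab3d, a Rab of secretory granules in exocrine and mast cells, had signals of 260 in metastatic-lung and 306 in normal-lung cells (log2 ratio -0.29). The neuronal vesicle Rab Rab3a was detected in normal-lung cells only, at 99.7, with 68.9 in metastatic-lung cells, and was at least 1.34-fold lower. Rab27b, Rab37, Rab3b and Rab3c were detected on neither array.

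The Rabs of late endosomes and autophagy had the highest group median, a log2 ratio of 0.69 over 5 detected genes. Rab24, a divergent Rab tied to autophagy, was read by 3 detected probes. Their signals were 382, 347 and 116 in metastatic-lung cells and 226, 218 and 102 in normal-lung cells, with log2 ratios of 0.87, 0.78 and 0.48. All 3 were therefore higher, none as much as 2-fold. Rab9, which returns mannose 6-phosphate receptors from late endosomes to the Golgi, had signals of 267 and 194 in metastatic-lung cells and 184 and 163 in normal-lung cells on its detected probes, with log2 ratios of 0.69 and 0.41. Rab29, a Rab of the trans-Golgi and of stressed lysosomes, had 371 in metastatic-lung and 388 in normal-lung cells. Rab12 and Rab9b were not detected.

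The Rabs of early and recycling endosomes had 9 of 14 genes detected, with a median log2 ratio of 0.32 and none as much as 2-fold different. Rab5a, which drives fusion of early endosomes, had signals of 271 and 224 in metastatic-lung cells and 190 and 171 in normal-lung cells on its 2 probes, with log2 ratios of 0.66 and 0.55. Rab31, a Rab5-like Rab of endosomes, had 1098 in metastatic-lung and 756 in normal-lung cells (log2 ratio 0.46). Rab11a (0.40), Rab14 (0.36), Rab22a (0.32) and Rab21 (0.32) had smaller log2 ratios of the same sign, and Rab35 was at -0.09. Rab11b, a Rab of the recycling endosome, had signals of 821 in metastatic-lung and 1096 in normal-lung cells, a log2 ratio of -0.56, and Rab5c had 3831 and 4337 in metastatic-lung and normal-lung cells (-0.32). Rab17 and Rab25, which are epithelial Rabs, and Rab20, Rab4a and Rab4b were not detected.

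Rabs between the endoplasmic reticulum and the Golgi had 9 of 14 genes detected, with a median log2 ratio of -0.11, or 0.04 with the 3 genes detected on 1 array only at their bounds. Rab6a, the main Golgi Rab, was read by 3 probes with signals of 279, 177 and 149 in metastatic-lung cells and 202, 119 and 113 in normal-lung cells. Their log2 ratios were 0.60, 0.91 and 0.70, all higher and all under 2-fold. Rab1a (log2 ratio 0.13) and Rab1b (-0.11), which serve transport into the Golgi, Rab2a (-0.15), Rab18 (0.32), a Rab of lipid droplets and the endoplasmic reticulum, and Rab33b (-0.46) differed less. Rab2b and Rab43 were detected in normal-lung cells only, close to the detection limit, at signals of 82.5 and 84.3. Rab30, Rab33a, Rab34, Rab36 and Rab6b were not detected on the probe that represents them, while a dimmer Rab34 probe was detected in normal-lung cells only, with signals of 56.0 in metastatic-lung and 85.2 in normal-lung cells.

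All 5 Rabs of polarised surface transport were detected. Rab8b, which guides vesicles to the plasma membrane, had signals of 5084 and 4783 in metastatic-lung cells and 2946 and 2760 in normal-lung cells. Its 2 probes gave log2 ratios of 0.63 and 0.66. Its relative Rab8a had 1361 and 247 in metastatic-lung cells and 1525 and 294 in normal-lung cells, with log2 ratios of -0.29 and -0.30, so that both probes of one gene were higher and both of the other lower. Rab10 (log2 ratio -0.15), a Rab of glucose transporter and receptor delivery, Rab13 (0.21), a Rab of cell junctions, and Rab15 (-0.15) differed less. The remaining detected Rabs were all lower in metastatic-lung cells by less than 2-fold. They were Rab40c (-0.53), part of a ubiquitin ligase, Rab39 (-0.47), Rab23 (-0.31), a regulator of Hedgehog signalling, and Rab28 (-0.14). Rab39b, Rab40b and Rab42 were not detected.

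Near relatives that share a number and differ by a letter could be set side by side for 5 Rabs with both genes detected on both arrays. The log2 ratios had opposite signs in 4 of these pairs, a count made after the values were seen, and the same sign for Rab7 and Rab7b. The difference was 0.97 between Rab5a and Rab5c, 0.95 between Rab11a and Rab11b and 0.24 between Rab1a and Rab1b, with the first-named higher, -0.92 between Rab8a and Rab8b and -1.41 between Rab7 and Rab7b. For the Rab1 pair the sign depends on the probe, since a further Rab1b probe had a log2 ratio of 0.04. Over all detected genes 4142 of 8128 ratios were above 0. No promoter sequence was available for Rab7b, nor for Rab44, Rab38 and Vamp2. The promoters of the Rab8 and Rab5 relatives are shown because these pairs differed most among those of opposite sign with a gene read by more than 1 detected probe. They run from 250 bases before to 50 bases after the start, from RefSeq on GRCm38.p6, on the gene's strand. Capitals mark matches on either strand to the E-box CACGTG, the CCAAT box, the ETS-type letters GAGGAA, the Sp1 box GGGCGG or the TATA box TATAAA, none of which contains another. Rab8b lies at chr9:66919656-66919955 (minus strand), Rab8a at chr8:72160950-72161249 (plus), Rab5a at chr17:53478984-53479283 (plus) and Rab5c at chr11:100738166-100738465 (minus).
Rab8b: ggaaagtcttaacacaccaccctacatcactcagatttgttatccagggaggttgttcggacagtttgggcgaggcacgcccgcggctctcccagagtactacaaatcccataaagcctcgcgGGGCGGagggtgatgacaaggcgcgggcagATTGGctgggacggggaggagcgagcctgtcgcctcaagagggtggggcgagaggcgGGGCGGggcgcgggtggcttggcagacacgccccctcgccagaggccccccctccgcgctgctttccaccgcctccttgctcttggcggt
Rab8a: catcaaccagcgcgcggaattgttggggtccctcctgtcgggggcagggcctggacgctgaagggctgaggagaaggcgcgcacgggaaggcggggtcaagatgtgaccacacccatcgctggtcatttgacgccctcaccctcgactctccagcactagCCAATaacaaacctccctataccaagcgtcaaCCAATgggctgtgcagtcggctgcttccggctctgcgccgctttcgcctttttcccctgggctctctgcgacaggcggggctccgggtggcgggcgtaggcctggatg
Rab5a: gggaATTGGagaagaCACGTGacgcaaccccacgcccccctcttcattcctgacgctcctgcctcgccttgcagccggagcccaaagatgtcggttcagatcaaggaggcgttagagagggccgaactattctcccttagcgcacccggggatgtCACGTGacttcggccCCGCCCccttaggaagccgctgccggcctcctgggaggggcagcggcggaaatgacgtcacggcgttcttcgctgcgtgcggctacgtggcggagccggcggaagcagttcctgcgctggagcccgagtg
Rab5c: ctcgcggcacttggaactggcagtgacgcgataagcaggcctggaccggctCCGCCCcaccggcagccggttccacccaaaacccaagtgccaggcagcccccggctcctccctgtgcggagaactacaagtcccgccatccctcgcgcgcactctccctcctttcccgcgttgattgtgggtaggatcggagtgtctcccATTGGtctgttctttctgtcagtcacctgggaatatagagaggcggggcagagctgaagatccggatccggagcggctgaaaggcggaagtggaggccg

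All 4 promoters held the CCAAT box, the letters read by NF-Y, which was found in 37.8% of 27025 promoters of this length. The Sp1 box was found in those of Rab8b, Rab5a and Rab5c and not in the Rab8a window. The E-box was in the Rab5a promoter alone among these 4, and neither the ETS-type letters nor the TATA box was in any of them. Of the 73 Rab and SNARE genes with a promoter in the table, 65.8% held the Sp1 box, beside 35.6% of all promoters, and 6.85% held the TATA box, beside 14.1%. The CCAAT box was in 43.8% of the 73, the E-box in 11.0%, beside 7.09% of all promoters, and the ETS-type letters in 24.7%, beside 28.2%. A match of letters is a description and no binding was measured.

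Of the target-membrane SNAREs, 10 of 13 syntaxin genes were detected and none was as much as 2-fold different on the probe that represents it. Stx3, a plasma membrane syntaxin of apical and granule exocytosis, was read by 3 probes with signals of 152, 148 and 125 in metastatic-lung cells and 135, 131 and 81.3 in normal-lung cells. The first 2 gave log2 ratios of 0.37 and 0.36. The third was detected in metastatic-lung cells only, with a log2 ratio of 1.26, so the probes of Stx3 did not give 1 answer. Stx4a, the other detected plasma membrane syntaxin, had signals of 319 in metastatic-lung and 320 in normal-lung cells (log2 ratio -0.05). Stx1a, the neuronal syntaxin, and Stx2 and Stx19 were not detected.

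Stx5a, the syntaxin of traffic into and through the Golgi, had the largest log2 ratio of the syntaxins on the representing probes. Its representing probe had signals of 626 in metastatic-lung and 389 in normal-lung cells (0.67), and its dimmer probe had 95.6 in metastatic-lung and 72.4 in normal-lung cells, where it was not detected. The log2 ratio of the dimmer probe was 1.0001, at the 2-fold line, but it rests on a value below detection. The endosomal and trans-Golgi syntaxins had a median log2 ratio of -0.07 over 5 genes. Stx12 was at 0.35, Stx7, a syntaxin of late endosome fusion, at 0.12, Stx16 at -0.07, Stx8 at -0.11 and Stx6 at -0.24. Stx17, which fuses autophagosomes with lysosomes, had signals of 88.4 in metastatic-lung and 90.4 in normal-lung cells (0.18), and Stx18 was detected in normal-lung cells only, at 83.7.

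The other SNARE partners differed little. Snap23, the SNAP25 relative of non-neuronal cells, had signals of 2307 and 100 in metastatic-lung cells and 1614 and 96.9 in normal-lung cells, with log2 ratios of 0.42 and 0.29. Snap29 had 1633 in metastatic-lung and 1551 in normal-lung cells (log2 ratio -0.04). Snap25 itself, the neuronal form, was not detected, nor were Snap47 and Snap91, the last of which is a clathrin adaptor that shares only the name.

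Of the VAMPs, Vamp8, the vesicle SNARE of granule release and of lysosome fusion, had signals of 449 and 266 in metastatic-lung cells and 437 and 292 in normal-lung cells, with log2 ratios of 0.00 and -0.16. Vamp3, a VAMP of recycling endosomes, had 1302 and 1047 in metastatic-lung cells and 1328 and 1148 in normal-lung cells (log2 ratios -0.17 and -0.26). Vamp4 (0.31), of the trans-Golgi, and Vamp7 (0.19 and 0.54 on its 2 probes), of lysosome exocytosis, were on the other side of 0. None of these approached the difference of Vamp2. Vamp1 was read by 3 probes that lay on both sides of 0, from -0.28 to 0.38, and Vamp5 was not detected.

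Syntaxin-binding proteins had 4 of 5 genes detected. Stxbp2, also called Munc18-2, whose loss in humans impairs cytotoxic granule release, had signals of 1017 in metastatic-lung and 948 in normal-lung cells (log2 ratio -0.03). Stxbp3 had 1752 in metastatic-lung and 1367 in normal-lung cells (0.24), Stxbp6 had 205 and 182 in metastatic-lung and normal-lung cells (0.28) and Stxbp5l had 109 in metastatic-lung and 110 in normal-lung cells (0.12). All were thus far from a 2-fold difference. Stxbp4 was not detected.

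**Figure D3:**
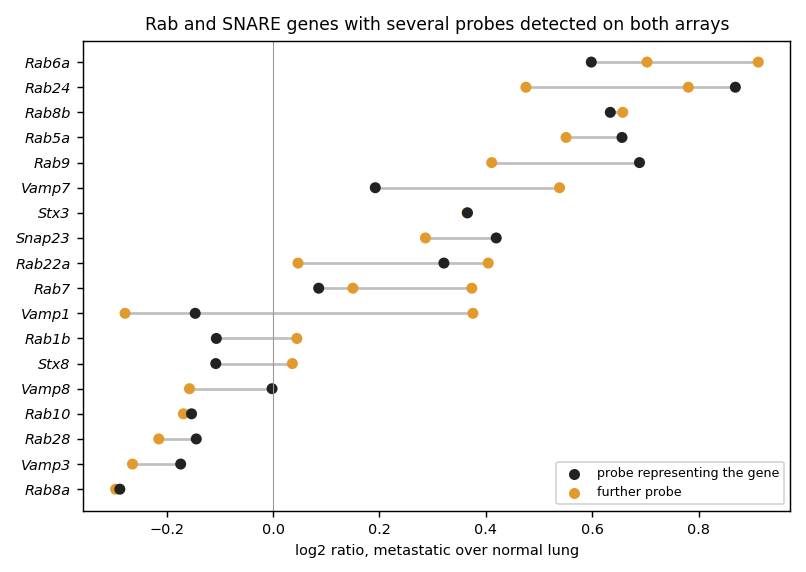
Log2 ratio of metastatic over normal lung (horizontal axis) for probes detected on both arrays, in the 18 Rab and SNARE genes with several such probes. Each point is 1 probe, black for the probe that represents the gene and orange for further ones. Other probes of these genes are not plotted. In 15 of the 18 genes all plotted probes lie on the same side of 0, and Vamp1 has the widest spread of plotted probes.

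With 1 array per group, the spread between probes of a gene is the only error the files hold. Probes of a gene share both samples, so this spread covers neither the animals, the sort nor the amplification. The 18 Rab and SNARE genes with several probes detected on both arrays had 41 such probes, and the log2 ratios of a gene's probes had an SD of 0.17. For all 1177 genes on the array with exactly 2 such probes this SD was 0.26. Such probes of a gene gave ratios of the same sign for 15 of the 18 genes, the others being Stx8, Rab1b and Vamp1. Probes not detected on both arrays are left out of this spread, among them the Stx3 probe with a log2 ratio of 1.26. The values of Rab44, Rab38, Rab7b and Vamp2 rest on 1 detected probe each.

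**Figure D4:**
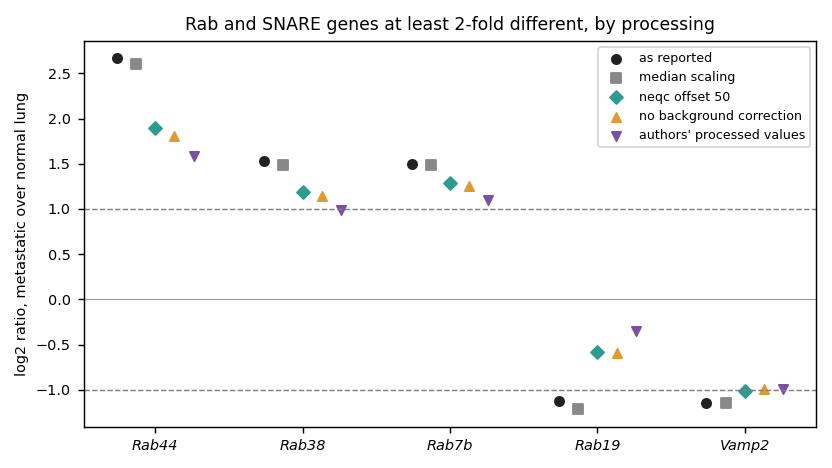
Log2 ratio of metastatic over normal lung (vertical axis) for the 5 genes with at least a 2-fold difference, as reported and under 4 other ways of making the values, with dashed lines at 2-fold. Rab44 and Rab7b stay above the upper line in all 5, Rab38 reaches 0.99 in the authors' processed values, Vamp2 lies along the lower line and Rab19 moves to -0.36.

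Beyond the families chosen by name, the other genes that run Rab and SNARE cycles were read as lists. Of 166 such genes 142 were on the array and 93 were detected, with a median log2 ratio of -0.06. By the 2-fold rule 6 genes (6.45%) were higher and 8 (8.60%) were lower in metastatic-lung cells, near the 5.89% and 10.2% of all detected genes. With genes detected on 1 array only at their bounds, 6 were higher and 7 lower, beside 5.09% and 8.16% of all detected genes. These counts were not repeated under other ways of making the values. SNAREs with other names had 0 of 10 detected genes as much as 2-fold different, and so did the disassembly and SM proteins (0 of 6), the exocyst (0 of 7) and the HOPS and CORVET tethers (0 of 5).

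Of 30 granule docking and priming factors on the array, 21 were not detected. The 9 detected genes all had a measured log2 ratio below 0, with a median of -0.86, or -0.71 with 1-array genes at their bounds, where Unc13b was at 0.03. At least 2-fold lower were 4 of them, beside 10.2% of all detected genes, or 3 with bounds, beside 8.16%. Myrip, which links Rab27 to myosin motors, had signals of 65.9 in metastatic-lung and 169 in normal-lung cells and was at least 3.03-fold lower after background correction, beside 2.56-fold in the uncorrected signals. Sytl4, a Rab27 effector also called granuphilin, had 89.8 in metastatic-lung and 198 in normal-lung cells (log2 ratio -1.54), and Rims3 had 117 in metastatic-lung and 206 in normal-lung cells (-1.01). The uncorrected signals of Rims3 differed 1.76-fold, under the 2-fold line. Syt15 was detected in normal-lung cells only and was at least 1.54-fold lower. Unc13d, or Munc13-4, the priming factor of leukocyte granules, had signals of 218 in metastatic-lung and 361 in normal-lung cells, a log2 ratio of -0.86 that was under 2-fold. Every marker list given above, except that of neutrophils and granulocyte precursors, also had 1 or more genes at least 2-fold lower. The neutrophil and granulocyte precursor markers had genes at least 2-fold higher. So did the monocyte and macrophage, mast cell and basophil, and eosinophil markers, with 1 gene each. The part of any of these in the granule docking differences was not tested.

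**Figure D5:**
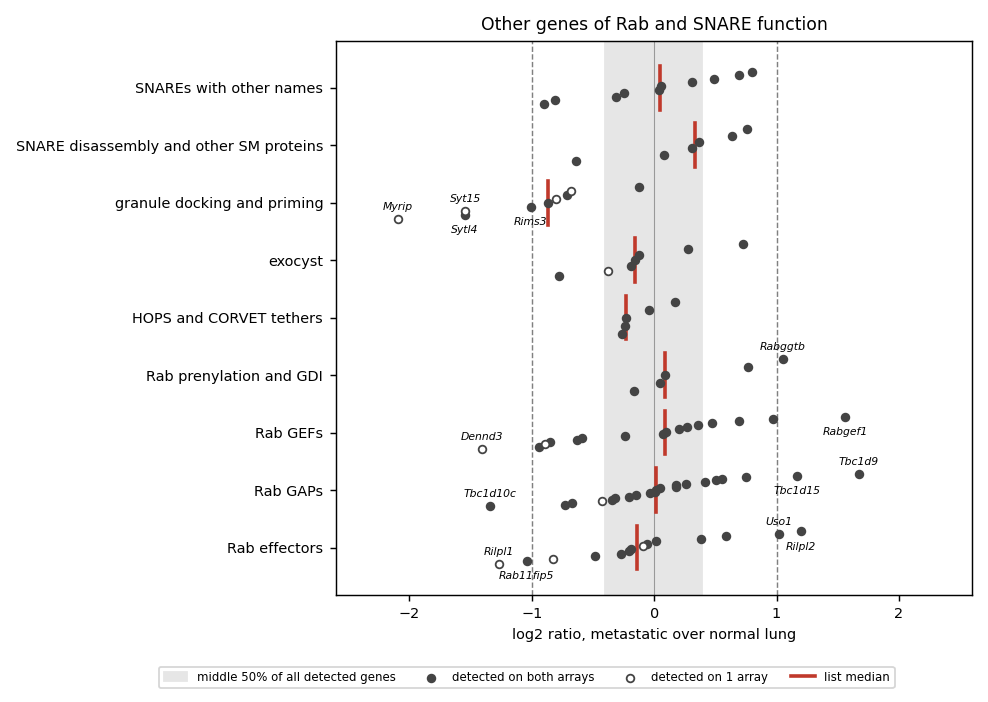
Log2 ratio of metastatic over normal lung (horizontal axis) for detected genes of 9 lists of Rab and SNARE function, each point 1 gene, open where it was detected on 1 array only, with a red bar at the list median. Dashed lines mark 2-fold differences and the grey band the middle 50% of all detected genes. The median of granule docking and priming, -0.86, lies left of the band.

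Enzymes that load, switch and read Rabs went both ways. Rabggtb, the catalytic subunit that attaches prenyl groups to Rabs, had signals of 1194 in metastatic-lung and 552 in normal-lung cells (log2 ratio 1.05). Of 16 detected exchange factors Rabgef1, which activates Rab5, was higher, with 302 in metastatic-lung and 133 in normal-lung cells (1.56), and Dennd3 was at least 2.27-fold lower after background correction, beside 1.91-fold in the uncorrected signals. Of 21 detected GTPase-activating proteins Tbc1d9 was higher, with 920 in metastatic-lung and 303 in normal-lung cells (1.67), as was Tbc1d15, a GAP for Rab7 (1.17), while Tbc1d10c was lower (-1.34). Of 14 detected effectors Rilpl2 (1.20) and the Golgi tether Uso1 (1.02) were higher, and Rab11fip5 (-1.04) was lower. In the uncorrected signals Uso1 differed 1.68-fold and Rab11fip5 1.85-fold, both under the 2-fold line. Rilpl1 was at least 2.40-fold lower after background correction, beside 1.85-fold in the uncorrected signals. These lists, of 5, 16, 21 and 14 detected genes, therefore held 6 higher and 4 lower genes. The granule docking list held 0 higher and 4 lower among 9 detected genes. Over all detected genes 5.89% were higher and 10.2% lower. The brightest gene of each list not yet named differed less than 2-fold. The log2 ratio was -0.15 for Tbc1d22a, 0.06 for the Golgi SNARE Gosr2, 0.08 for Napg, an adaptor of SNARE disassembly, -0.85 for Rin2, a Rab5 exchange factor, -0.21 for Bicd2, a dynein adaptor, -0.04 for the HOPS and CORVET subunit Vps16 and -0.15 for the exocyst subunit Exoc6.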

How the data were processed

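Total RNA of sorted cells was read on 1 Illumina bead array per group. The authors deposited a non-normalized intensity per probe with no background subtracted, and a detection p-value per the file headers; per the submitters' processing notes BeadStudio, of no stated version, was used. Their processed intensity values are straight-line rescalings of the same arrays and served as an alternative. The slopes were 0.942 for metastatic and 1.08 for normal lung, with added constants of 33.8 for metastatic and 9.31 for normal lung. Such constants change the ratios of dim genes, and these values are no separate measurement. Median signals were 66.1 for metastatic and 72.2 for normal lung.

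Intensities were background-corrected with neqc (limma 3.58.1, R 4.3.3, background from the detection p-values, offset 16), quantile-normalized and taken to log2. The offset shrinks ratios of dim genes, but other ways of making the values mostly gave smaller ones. For Rab19 the log2 ratio was -1.12 as reported and -1.22 with median scaling. It was -0.58 with an offset of 50, -0.59 with no background correction and -0.36 in the authors' processed values. Python 3.11.15, pandas 2.3.3, numpy 2.4.6 and matplotlib 3.10.9 were used. The steps were also run on simulated arrays, but no result of those runs is given or used here.

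Platform annotation of 2016 named 23978 probes, 0 with several symbols, and left 1719 unnamed; all 134 Rab and SNARE probes matched a RefSeq gene identifier of GRCm38.p6 with the same symbol. The probe with the highest mean level represents a gene. Every gene of the families is named; values are given in full for genes at least 2-fold different, for the extremes and brightest of each role group and for a granule release set. Of the other pathway genes, those at least 2-fold different and the brightest of each list are named. With 1 array per group no test was run. Members and lists were chosen with earlier results of these data known.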

Additional observations from a re-analysis of the deposited data

How the results depend on the processing

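With 1 array per group no replicate could be left out. No paired analysis was possible because the result comes from no test. The count of Rab and SNARE genes at least 2-fold higher was 3, and it was 2 with the authors' processed values (without Rab38) and with detection required on both arrays (without Rab44). The count lower was 2 as reported. It was 1 with an offset of 50, with detection on both arrays and with 1-array genes at their bounds, an alternative chosen after seeing the data, since Rab19 then left. It was 0 with no background correction and with the authors' processed values, where Vamp2 also left, at a log2 ratio of -0.99 in both. The median log2 ratio ranged from -0.02, with the mean over detected probes, to 0.10, with detection on both arrays. Of 534 single-gene values under 9 alternatives, 0 reversed a 2-fold call, 7 lost one and 0 gained one. Genes left out when detection was required on both arrays, Rab44 and Rab19 among them, are not in these counts. Alternatives that changed only the detection rule kept each gene's log2 ratio, so they could not reverse a call. The bounds likewise left genes detected on both arrays unchanged. Across all detected genes the number at least 2-fold different either way was 1305 (479 higher, 826 lower). It was 239 higher and 513 lower with an offset of 50, 210 and 492 with no background correction, 159 and 422 with the authors' processed values. Genes with signals near the lowest detected ones, 78.0 in metastatic-lung and 82.2 in normal-lung cells, have ratios that background limits.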
